A study of Mus musculus with 8 samples.

Results

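The proteins encoded by Mbnl1, Mbnl2, Celf1, Celf2, Rbfox1, Rbfox2, Rbm20, Rbm24, Ptbp1 and Ptbp2 bind pre-mRNA and set which exons of heart genes are kept. These 10 genes were chosen by name as the alternative splicing regulators of the heart, and each was matched to its gene symbol in the RNA-seq values of 8 mouse hearts. All 10 matched a locus and all 10 passed the filter on low values. They are 10 of 80155 loci, and 39614 of these have a gene symbol (annotated loci). Whole hearts without the atrial appendages came from male mice of the outbred strain Hsd:ICR(CD-1), 4 at postnatal day 1 (P1) and 4 at postnatal day 7 (P7). No allele, treatment or injury is named for either group. Each heart was a separate animal and a separate library of ribodepleted RNA. The study compared the days on either side of the loss of cardiac regeneration in the newborn mouse.

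Many heart genes change isoform around birth without a large change in their total RNA. In the usual account, CELF proteins favour fetal splice patterns and MBNL proteins favour adult ones, RBFOX proteins act on exons beside their UGCAUG motif, and RBM20 and RBM24 act in striated muscle, RBM20 chiefly on titin. PTB proteins repress tissue-specific exons, and PTBP1 gives way to PTBP2 in developing neurons.

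The regulators are themselves alternatively spliced, and the deposited value of a locus sums all of its isoforms. Exons of this kind are shown for 5 of the 10 genes, since their use cannot be read from the values that follow. In each line the capitals are an exon that some GENCODE M21 transcripts (build GRCm38) include and others skip. The lower-case letters are the 20 bases of the exon on either side in the spliced RNA. The 54-base exons of Mbnl1 (chr3:60614683-60614736, plus strand) and Mbnl2 (chr14:120395712-120395765, plus strand) encode part of the nuclear localization signal and are regulated by MBNL proteins themselves. The 34-base exons of Ptbp1 (chr10:79862014-79862047, plus strand) and Ptbp2 (chr3:119724612-119724645, minus strand) are not a multiple of 3 bases long. The 40-base exon (chr15:77094451-77094490) and the 43-base exon (chr15:77091812-77091854) of Rbfox2 (minus strand) are alternatives between the same neighbours, the shorter known from brain and the longer from muscle.
Mbnl1: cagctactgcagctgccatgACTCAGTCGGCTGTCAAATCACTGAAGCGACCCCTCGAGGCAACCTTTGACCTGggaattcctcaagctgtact
Mbnl2: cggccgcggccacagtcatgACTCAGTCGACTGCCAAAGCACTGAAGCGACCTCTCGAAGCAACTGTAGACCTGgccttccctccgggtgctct
Ptbp1: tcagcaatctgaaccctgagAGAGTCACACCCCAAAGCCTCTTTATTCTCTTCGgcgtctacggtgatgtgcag
Ptbp2: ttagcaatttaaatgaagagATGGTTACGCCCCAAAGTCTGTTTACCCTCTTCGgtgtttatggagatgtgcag
Rbfox2 shorter exon: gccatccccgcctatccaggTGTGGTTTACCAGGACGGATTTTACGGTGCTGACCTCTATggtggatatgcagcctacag
Rbfox2 longer exon: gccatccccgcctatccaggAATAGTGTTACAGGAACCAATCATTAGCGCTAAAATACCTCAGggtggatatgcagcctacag

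The Mbnl1 and Mbnl2 exons are identical at 46 of 54 bases (85.2%), and those of Ptbp1 and Ptbp2 at 26 of 34 (76.5%). In both Ptbp genes the transcripts that skip the exon are annotated as targets of nonsense-mediated decay, the pathway that destroys RNA with an early stop codon. The number of annotated transcripts ranged from 3 for Rbm20 to 28 for Celf2, with 25 for Mbnl1. Cassette exons of this kind were found in 7 of the 10 genes and not in the annotated transcripts of Celf1, Rbm20 and Rbm24.

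The unit is FPKM, fragments per kilobase of transcript length, scaled to the mapped fragments of the library. Levels of different genes are thus compared per length of transcript, not of the locus span. The steps between low values placed 1 FPKM at about 12.3 to 19.7 fragments per kilobase in the 8 libraries. The lowest value of any of the 10 genes, Rbfox1 in P1 replicate 3, thus rests on about 75.9 fragments per kilobase. P1 replicate 3 had 28662 loci at 1 FPKM or more, and the other hearts had 20269 to 22292. The FPKM values summed to 2136937 in P7 replicate 4 and to between 1038650 and 1400587 in the other hearts. Median-ratio size factors, which describe how high the values of a heart lie in general, ran from 0.801 to 1.16 in P1 and from 0.942 to 1.27 in P7. P1 replicate 3 had the lowest factor and held the lowest P1 value for 7 of the 10 genes. P1 replicate 4 had the highest P1 factor and held the highest P1 value for 8. In P7, replicate 2 had the lowest factor and held the lowest value for 7 genes, and replicate 3 had the highest factor and held the highest value for 6.

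Rbm24 had the highest level of the 10 in every heart and Rbfox2 the next highest in every heart, with means over the 8 hearts of 202.7 and 116.2 FPKM. Celf2 (84.0 FPKM) and Mbnl2 (77.9 FPKM) came next and changed places between hearts, Celf2 being above in 5 of 8. Mbnl2 was above Mbnl1 in 8 of 8 hearts. Mbnl1 (55.4 FPKM), Celf1 (54.5 FPKM), Ptbp2 (53.5 FPKM) and Rbm20 (52.2 FPKM) could not be ordered, since each stood above the next in only 3 or 4 of 8 hearts. Rbm20 was above Ptbp1 in 8 of 8 hearts, and Ptbp1 was above Rbfox1 (11.1 FPKM) in 7 of 8. The plot of levels shows this order together with the spread at each day.

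**Figure D1:**
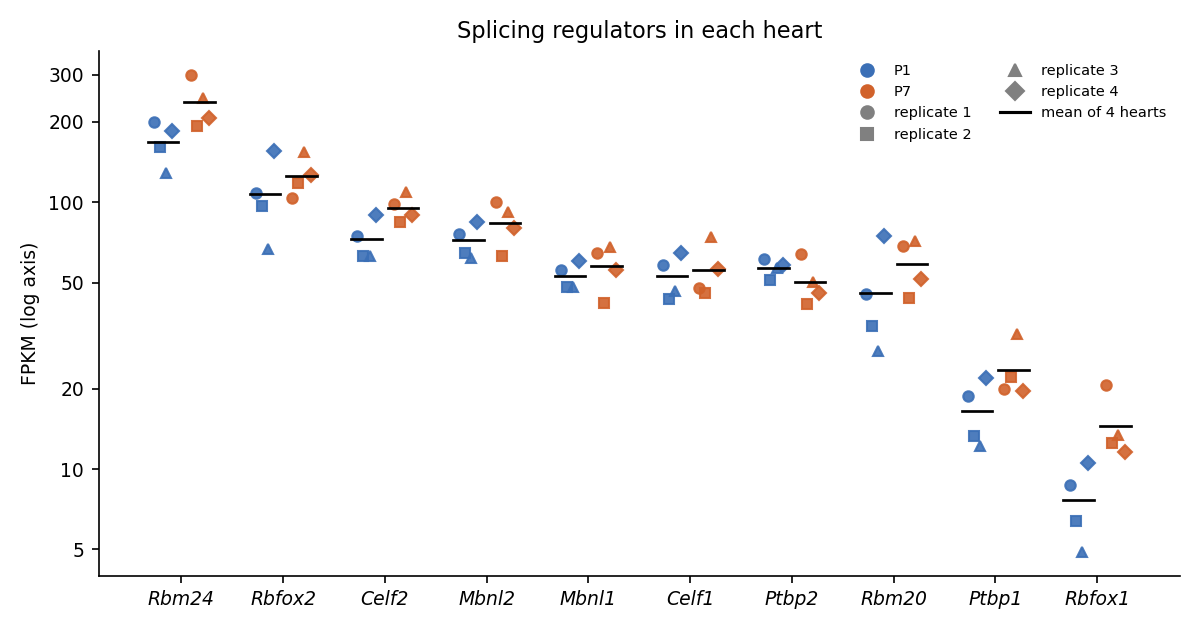
FPKM (log axis) of the 10 splicing regulators in each heart, P1 in blue and P7 in orange, with a marker shape for each replicate number and a black line at the mean of 4 hearts. Rbm24 lies highest in every heart, and Rbfox1 is the gene whose P7 hearts (11.6 to 20.6) all lie above its P1 hearts (4.90 to 10.5).

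Between P1 and P7, 0 of the 10 regulators passed the thresholds for a change (limma, Benjamini-Hochberg adjusted p under 0.05 over all 43172 tested loci, and mean FPKM differing 1.5-fold or more). In the same fit 3.82% of all tested loci and 8.14% of the annotated ones passed. The annotated share was itself unstable, at 0.935% without P1 replicate 2, 16.0% without P1 replicate 4 and 2.27% with a correction for transcript GC content. At an unadjusted p under 0.05 there were 2 of the 10, Rbfox1 and Rbm24, against 29.7% of annotated loci. With median-ratio scaling the 2 were Rbfox1 and Ptbp2. In 1 of the 10, Rbfox1, every P7 heart lay above every P1 heart, as in 17.3% of annotated loci. In 0 of the 10 every P7 heart lay below, against 2.69%. The fold changes were positive for 9 of the 10 and negative for Ptbp2, with a median log2 fold change of 0.34. The annotated loci as a whole had a median of 0.19 and 67.6% of them were positive. Median-ratio scaling of the hearts moved the median of all annotated loci to 0.0021, and the signs of Mbnl1, Mbnl2 and Celf1 turned with it. The intervals in the plot of changes show which sizes of change these 8 hearts leave possible for each gene.

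**Figure D2:**
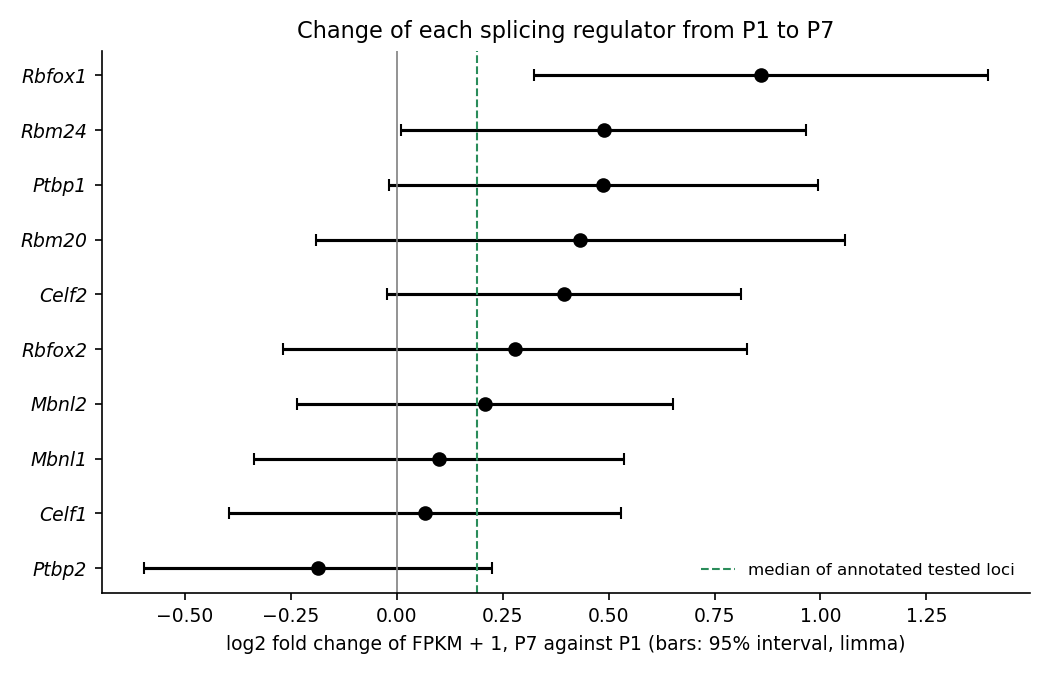
Log2 fold change of FPKM + 1 from P1 to P7 for each regulator (points) with its 95% interval from limma (bars, 4 hearts per day); the dashed line is the median of annotated tested loci, 0.19. The intervals of Rbfox1 and Rbm24 lie above 0 and those of the other 8 genes include it; with median-ratio scaling that of Rbm24 includes 0 (-0.09 to 0.58) and that of Ptbp2 lies below it (-0.74 to -0.11).

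Rbfox1 had the largest log2 fold change of the 10. This RNA-binding protein of neurons and striated muscle (chr16:6809222-7412487 in the files, GRCm38) was measured at 8.71, 6.41, 4.90 and 10.5 FPKM in P1 replicates 1 to 4, and at 20.6, 12.5, 13.4 and 11.6 in P7 replicates 1 to 4. Every P7 heart lay above every P1 heart, for Rbfox1 alone among the 10, and the gap between the groups was narrow beside the spread within them. The P1 mean of 7.64 ± 2.49 FPKM and the P7 mean of 14.5 ± 4.10 (each SD, n = 4) had a ratio of 1.90. By limma the log2 fold change was 0.86 with a standard error of 0.25 (adjusted p = 0.0788). The exact permutation test on the means gave p = 0.0286, the smallest that 4 against 4 hearts allow. This value follows from the separation of the groups and adds nothing to it. P7 replicate 1 had the highest value, and without it the log2 fold change was 0.69. Rbfox1 passed both thresholds under 5 of 21 alternatives. Among them were the analysis without P1 replicate 4 (limma adjusted p = 0.0266) and the one restricted to loci that reached 1 FPKM in each heart (limma adjusted p = 0.0227). In these settings 16.0% and 20.2% of annotated loci passed, against 8.14% in the main analysis. Rbfox1 also passed with the GC correction and median-ratio scaling (limma adjusted p = 0.0433), where 4.24% of annotated loci passed. With the GC correction and the replicate number as a block it passed too (limma adjusted p = 0.0487), where 2.14% did.

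Rbfox2, its relative with the same binding motif (chr15:77078934-77307053), stood 5.06 to 15.1 times higher than Rbfox1 within a heart and did not pass. Its P1 hearts held 108, 96.9, 66.9 and 156 FPKM and its P7 hearts 104, 118, 154 and 127. The P1 hearts alone spanned more than the P7 hearts, which lay inside their range. Means were 106.9 ± 37.0 at P1 and 125.5 ± 20.9 at P7 (SD over 4 hearts), with a log2 fold change of 0.28 (95% interval -0.27 to 0.83, limma adjusted p = 0.525).

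Rbm24 (chr13:46418300-46431536), needed for the splicing of sarcomere genes, held 199, 161, 128 and 185 FPKM in the P1 hearts and 301, 193, 247 and 207 in the P7 hearts. The groups overlapped at P1 replicate 1 and P7 replicate 2. Means were 168.4 ± 31.0 at P1 and 237.0 ± 48.2 at P7 (SD over 4 hearts). The log2 fold change of 0.49 (95% interval 0.01 to 0.97) did not pass (limma adjusted p = 0.259, exact permutation p = 0.0571). With median-ratio scaling it was 0.25 (95% interval -0.09 to 0.58).

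Rbm20 (chr19:53677306-53867080), the titin splicing factor mutated in a familial cardiomyopathy, held 45.2, 34.5, 27.6 and 74.9 FPKM in P1 and 68.7, 43.7, 71.3 and 51.6 in P7. P1 replicate 4 was the highest of all 8 hearts. Means were 45.6 ± 20.9 at P1 and 58.8 ± 13.3 at P7 (SD over 4 hearts), with a log2 fold change of 0.43 (95% interval -0.19 to 1.06, limma adjusted p = 0.418). Without P1 replicate 4 the log2 fold change was 0.70, still short of the threshold (limma adjusted p = 0.0910).

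Neither muscleblind gene passed, and both changed sign with the scaling of the hearts. Mbnl1 (chr3:60501181-60630010) held 55.8, 48.0, 48.2 and 60.3 FPKM in P1 and 64.7, 42.0, 68.2 and 55.7 in P7, so the P7 hearts reached both below and above the P1 hearts. Its log2 fold change was 0.10 (95% interval -0.34 to 0.54, limma adjusted p = 0.774). Mbnl2 (chr14:120275669-120431697) held 76.2, 64.7, 62.0 and 84.6 FPKM in P1 and 101, 62.9, 91.6 and 80.4 in P7. The P7 hearts of Mbnl2 were high in replicates 1 and 3 and within the P1 range in replicates 2 and 4. Its log2 fold change was 0.21 (95% interval -0.24 to 0.65, limma adjusted p = 0.553).

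The CELF genes, antagonists of MBNL proteins at many exons, had unlike values. Celf1 (chr2:90940382-91027014) held 58.2, 43.4, 46.4 and 64.3 FPKM in P1 and 47.7, 45.9, 73.9 and 56.3 in P7. These groups overlapped over most of their range, with a log2 fold change of 0.07 (95% interval -0.40 to 0.53, limma adjusted p = 0.863). Celf2 (chr2:6539705-7081313) held 74.7, 63.1, 63.1 and 89.8 FPKM in P1 and 98.1, 84.5, 109 and 89.5 in P7. Only P1 replicate 4 reached into the P7 range. The log2 fold change of Celf2 was 0.39 (95% interval -0.02 to 0.81, limma adjusted p = 0.295, exact permutation p = 0.0857).

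The PTB genes had fold changes of opposite sign, except with the GC correction, alone or with the replicate block, where both were positive, and neither passed. Ptbp1 (chr10:79851381-79883174), the widely expressed repressor, held 18.8, 13.3, 12.1 and 22.0 FPKM in P1 and 19.95, 22.2, 32.0 and 19.6 in P7. P7 replicate 3 was the highest, and P1 replicate 4 lay among the P7 hearts. The log2 fold change was 0.49 (95% interval -0.02 to 0.99, limma adjusted p = 0.287). Ptbp2 (chr3:119715729-119783412), the form known from neurons, held 61.3, 51.0, 56.7 and 58.0 FPKM in P1 and 63.8, 41.4, 50.1 and 45.8 in P7. P7 replicate 1 was the highest heart and the other P7 hearts lay below all 4 P1 hearts. Its log2 fold change was -0.19 (95% interval -0.60 to 0.22, limma adjusted p = 0.566). With median-ratio scaling it was -0.43 (95% interval -0.74 to -0.11, limma adjusted p = 0.122) and with quantile normalization -0.41, while the GC correction alone gave 0.08. In all 8 hearts Ptbp2 had the higher level of the pair per length.

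A ratio between 2 genes of the same heart is free of that heart's overall scale, and is given here as a description with no test. Rbfox2 to Rbfox1 was 12.4, 15.1, 13.7 and 14.8 in the P1 hearts and 5.06, 9.40, 11.5 and 10.9 in the P7 hearts. Every P7 heart lay below every P1 heart. Ptbp1 to Ptbp2 was 0.307, 0.260, 0.214 and 0.379 in P1 and 0.313, 0.537, 0.639 and 0.427 in P7. Only P7 replicate 1 lay within the P1 range, and the mean difference of 0.70 on the log2 scale became 0.23 with a correction for transcript GC content. The longest transcript of Ptbp1 has a GC content of 53.7% and that of Ptbp2 34.2%, the lowest of the 10.

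Mbnl1 and Mbnl2 together against Celf1 and Celf2 together stayed near 1, at 0.994, 1.06, 1.01 and 0.940 in P1 and 1.13, 0.805, 0.874 and 0.933 in P7. The P7 hearts lay on both sides of the P1 hearts, with a mean difference of -0.11 on the log2 scale. Rbm20 to Rbm24 was 0.227, 0.214, 0.215 and 0.405 in P1 and 0.228, 0.226, 0.289 and 0.249 in P7. P1 replicate 4 stood apart, and the other 7 hearts lay between 0.214 and 0.289.

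Over all 45 pairs of the 10 genes, 12 pairs (26.7%) had ratios that did not overlap between the days. The same count was 18.6% of 210 pairs among other tissue-specific splicing regulators and 34.7% of 300 pairs among hnRNP proteins, so the share among the 10 lies within that of other splicing genes. Rbfox1 was the relatively higher gene at P7 in 6 of the 12 pairs. Ptbp2 and Mbnl1 were the relatively lower gene in 3 each, as was Celf1. Of the 12 pairs, 9 stayed apart with the GC correction, including all 6 with Rbfox1.

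The pairs shown next were picked after their values were seen. Rbm24 to Ptbp2 was 3.25, 3.15, 2.27 and 3.19 in P1 and 4.71, 4.66, 4.92 and 4.53 in P7. The P7 hearts were close together and well above the P1 hearts, and with the GC correction the highest P1 value was 3.56 and the lowest P7 value 4.05. Rbfox1 to Ptbp2 was 0.142, 0.126, 0.0864 and 0.182 in P1 and 0.322, 0.303, 0.267 and 0.253 in P7. Celf2 to Celf1 was 1.28, 1.45, 1.36 and 1.40 in P1 and 2.06, 1.84, 1.48 and 1.59 in P7, a narrow separation.

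**Figure D3:**
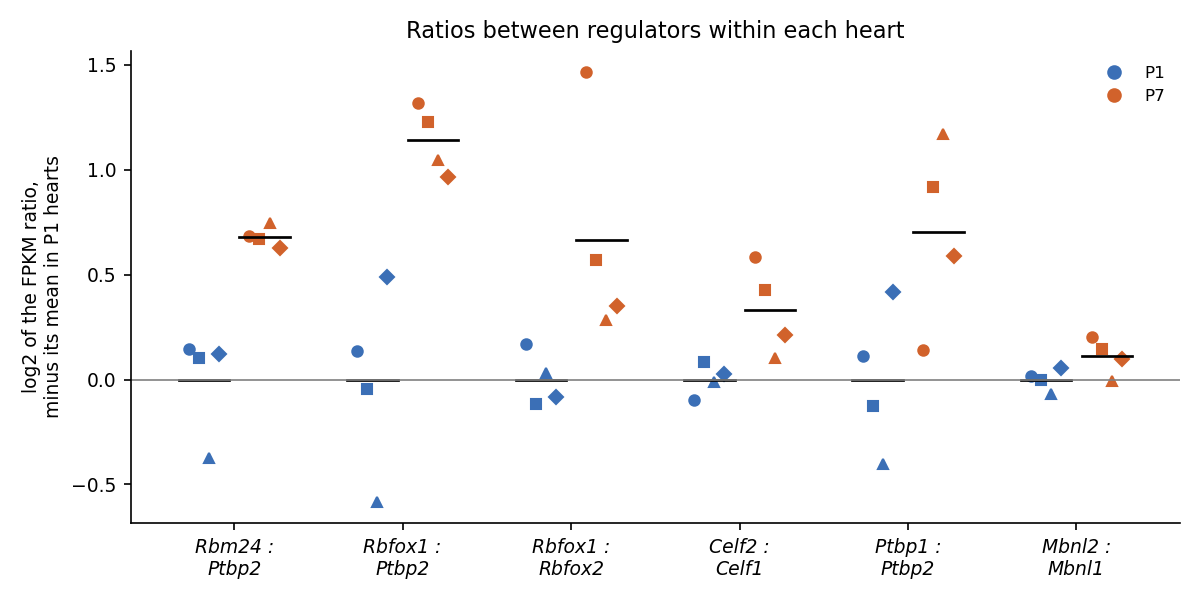
Log2 ratio of FPKM between named regulators within each heart, minus the mean of the P1 hearts (0), P1 in blue and P7 in orange, marker shapes by replicate number and black lines at the means. The ratios Rbm24 to Ptbp2, Rbfox1 to Ptbp2, Rbfox1 to Rbfox2 and Celf2 to Celf1 do not overlap between the days, while Ptbp1 to Ptbp2 and Mbnl2 to Mbnl1 do.

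Among other genes of the same families, 5 of 8 were tested and 1 passed. Rbm38, the closest relative of Rbm24, rose from 41.7, 35.7, 16.4 and 34.03 FPKM in P1 to 58.5, 64.9, 61.7 and 61.9 in P7. The P7 hearts lay close together, and P1 replicate 3 was far below the other P1 hearts. Its log2 fold change of 1.00 (standard error 0.26) lay just inside the threshold (limma adjusted p = 0.0496). It passed under 7 of 21 alternatives, with log2 fold changes from 0.28 to 1.15 and limma adjusted p-values from 0.00993 to 0.404. Ptbp3, listed as Rod1, had means of 34.6 and 33.3 FPKM (log2 fold change -0.07). Mbnl3 had 2.86 and 2.00 FPKM (-0.39), and Celf3, whose symbol 6 loci share, 1.42 and 2.45 FPKM (0.58).

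Of 23 other tested loci of tissue-specific splicing regulators, 0 passed in limma (2 at an unadjusted p under 0.05), with a median log2 fold change of 0.084. Rbm4 and Rbm4b share a locus and were counted as 1. The widest values were those of Rbm10 (0.66), Nova2 (0.44) and Rbpms (0.40). Of 21 tested SR proteins and their kinases, which favour exon inclusion, 0 passed in limma (5 at an unadjusted p under 0.05), with a median of 0.06. The widest were the kinases Clk3 (0.80) and Clk2 (0.67) and the SR protein Srsf6 (0.63). Of 40 components of the core spliceosome, 0 passed in limma (6 at an unadjusted p under 0.05), with a median of 0.22. The widest were Snrnp70, of the U1 particle, at 1.02, Prpf19 at 0.92 and Sf3b2 at 0.71.

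Of 25 hnRNP proteins, which often oppose SR proteins, 1 passed in limma and 24 did not (median -0.03). Hnrnpul1, a locus that also carries the symbol Ccdc97, rose from 49.4, 36.5, 26.9 and 63.1 FPKM to 81.7, 79.8, 106 and 86.2 (log2 fold change 1.05, limma adjusted p = 0.0384). Every P7 heart lay above every P1 heart, and fragments of Hnrnpul1 and Ccdc97 cannot be told apart in this value. It passed under 9 of 21 alternatives, counting those that keep a call by construction, with log2 fold changes from 0.59 to 1.25. The plot of lists shows these genes beside the 10 regulators.

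**Figure D4:**
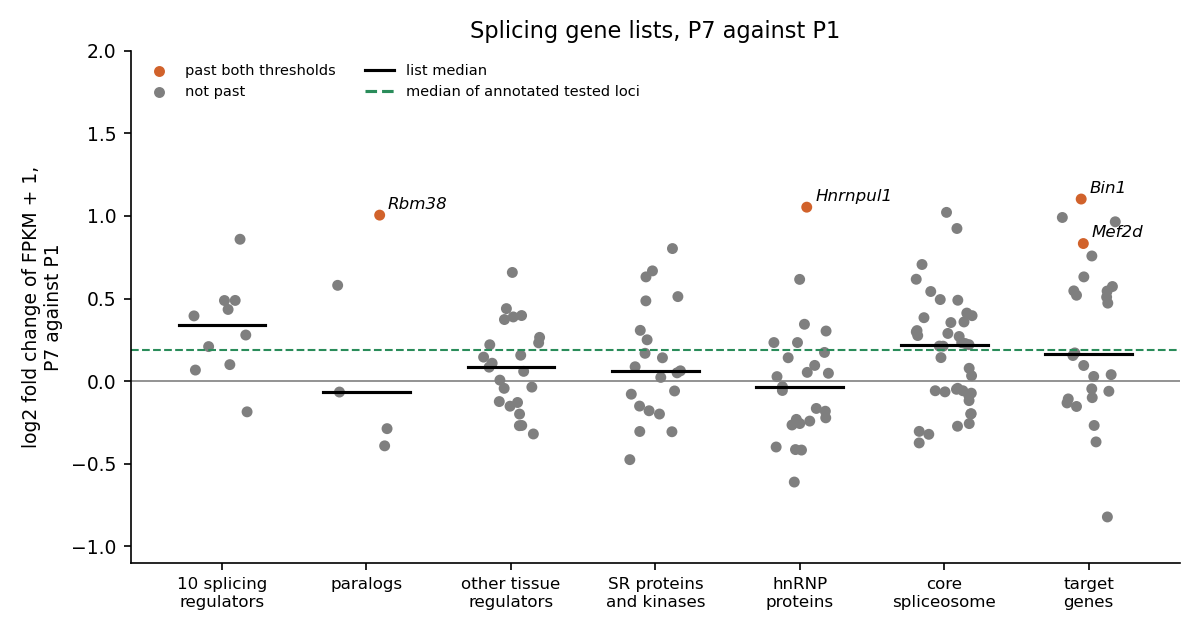
Log2 fold change of FPKM + 1 from P1 to P7 for the tested genes of each list (points, orange where both thresholds were passed), with the list median (black line) and the median of annotated tested loci (dashed, 0.19). The 10 regulators have no orange point, and Rbm38, Hnrnpul1, Bin1 and Mef2d are the 4 genes that passed.

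Genes whose exons these regulators are known to set were compared by their total FPKM, which does not show exon use. Of 26 such genes, 2 rose in limma and 24 did not pass (median log2 fold change 0.16). Bin1, which shapes transverse tubules, rose from 3.02, 1.94, 2.29 and 3.55 FPKM to 6.30, 5.75, 7.77 and 7.69 (log2 fold change 1.10, limma adjusted p = 0.0150). The groups lay far apart. The gene passed under 17 of 21 alternatives, counting those that keep a call by construction, with log2 fold changes from 0.62 to 1.34. Mef2d, a muscle transcription factor, rose from 28.7, 26.5, 17.4 and 24.7 FPKM to 38.6, 55.0, 39.4 and 42.5 (log2 fold change 0.83, limma adjusted p = 0.0451). It passed under 6 of 21 alternatives, counting those that keep a call by construction, with log2 fold changes from 0.32 to 0.92.

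Of the other 24 targets, 6 are described here by name, and none of these 6 passed in limma at the level of the gene. Titin (Ttn), the main target of RBM20, stood at 476.4 ± 164.5 FPKM at P1 and 523.4 ± 115.2 at P7 (SD over 4 hearts), with a log2 fold change of 0.17. The ratio of Rbm20 to Ttn was 0.103, 0.0774, 0.0880 and 0.106 in P1 and 0.131, 0.110, 0.106 and 0.104 in P7, which overlap. Camk2d, a calcium-dependent kinase, had a log2 fold change of 0.04 and Enah, an actin regulator, one of -0.05. For Ldb3, a Z-disc protein, the value was 0.55, for the troponin gene Tnnt2 0.76 and for the tropomyosin gene Tpm1 0.51, all short of the threshold (limma adjusted p = 0.200, 0.198 and 0.410).

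Several regulators share their span with other loci, and the files give these loci the same coordinates as the regulator. Whether counting used strand is not stated, so fragments of overlapping genes on opposite strands may be shared between them. Celf2 shares its span with 10 loci, among them 7SK (mean 1230 FPKM), 3 loci of the antisense gene Gm13389 (5.17 to 30.0), 4 loci named AL772190.1 (7.02 to 27.6) and the sense intronic Gm10115 (8.21) and Gm10855 (4.11). Rbm20 shares its span with 4 loci of the antisense gene Gm16299 (9.05 to 56.0 FPKM) and 3 of the pseudogene Gm16298 (2.22 to 14.0). The highest of the Gm16299 loci is thus as high as Rbm20 itself (52.2 FPKM). Rbfox2 overlaps 9 loci named AL603843.1 (3.56 to 11.5 FPKM) and 1 named U1 (16.2), Ptbp1 overlaps Gm17134 (11.0), BC005764 (1.88) and E130317F20Rik (1.68), and Mbnl2 overlaps AC154811.1 (1.38). No such locus was listed for Mbnl1, Celf1, Rbfox1, Rbm24 or Ptbp2. The file span of Rbfox1 begins inside the gene as GENCODE M21 draws it (chr16:5885355-7411526), so upstream start sites lie outside it. The same holds at the upstream ends of Mbnl1 (chr3:60472830-60629750 in GENCODE) and, on the minus strand, Celf2 (chr2:6539694-7509563) and Ptbp2 (chr3:119718742-119784466).

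Whole hearts hold several cell types, and in such bulk RNA fewer cells of a type and less RNA per cell cannot be told apart. Of 7 cardiomyocyte markers 0 passed in limma (2 at an unadjusted p under 0.05). Of 5 fibroblast markers 3 rose (Col1a1, Dcn and Tcf21), with 4 at an unadjusted p under 0.05. Of 5 endothelial markers 2 rose (Cdh5 and Tie1), with 3 at an unadjusted p under 0.05. The shares over annotated loci were 8.14% past the thresholds and 29.7% at an unadjusted p under 0.05. Every P7 heart lay above every P1 heart for 1 cardiomyocyte, 3 fibroblast and 2 endothelial markers, against 17.3% of annotated loci. The summed level of the fibroblast markers was 409.7 to 740.0 FPKM in P1 and 941.5 to 1144 in P7, and that of the endothelial markers 63.6 to 120.8 and 107.0 to 162.5. The 6 matched nerve markers summed to 4.40 to 5.57 FPKM in P1 and 2.58 to 9.44 in P7, with Snap25 at 0 in 1 P7 heart. The leukocyte markers summed to 4.29 to 7.00 and 6.14 to 7.87 FPKM. Pericyte and smooth muscle markers had 1 gene that rose, Pdgfrb, and summed to 249.0 to 531.4 FPKM in P1 and 155.7 to 271.3 in P7. Most of this sum was Acta2, at 214.2 to 454.6 FPKM in P1 and 90.7 to 199.4 in P7. Acta2 was the 1 marker of the 5 with a negative log2 fold change (-0.90). The other 4 were positive, and the median of the 5 was 0.48. Of the tested atrial (4), skeletal muscle (3) and red cell (3) markers, 0 passed in limma, with 2, 0 and 2 at an unadjusted p under 0.05. The part of these cells in the values of the 10 regulators was not tested.

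By the Pearson correlation of log2(FPKM + 1) over the 8 hearts, among 10341 annotated loci, the loci most like Rbfox1 were Rit1 (0.997), Map3k1 (0.996) and Mcf2l (0.994). Those most like Rbm24 were Ip6k2, Rprd2 (both 0.982) and Mtss1 (0.979). The 8 points share the overall scale of each heart, which raises correlations between loci in general, and are given as a description.

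Of 21 alternatives, 6 leave the fold changes as they are by construction and alter only the filter or the test. Over the other 15, the sign of the change held in all 15 for Rbfox1, Rbm24, Ptbp1 and Celf2. It held in 14 for Rbfox2 and Rbm20, in 13 for Mbnl1, Mbnl2 and Ptbp2 and in 10 for Celf1. The log2 fold change of Rbfox1 ran from 0.60 to 1.05, that of Rbm24 from 0.25 to 0.58, that of Celf2 from 0.15 to 0.66, that of Ptbp1 from 0.05 to 0.63 and that of Ptbp2 from -0.43 to 0.08. Rbfox1 was the only one of the 10 to pass both thresholds under any of these alternatives.

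**Figure D5:**
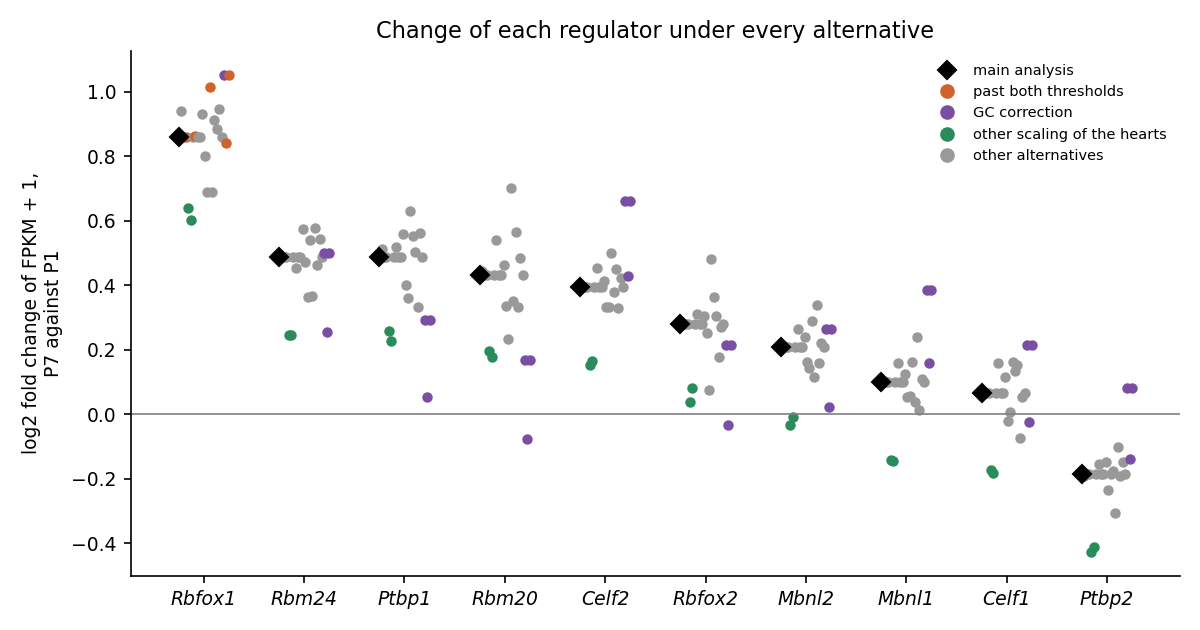
Log2 fold change of FPKM + 1 from P1 to P7 for each regulator in the main analysis (black diamonds) and under each alternative (circles; orange where both thresholds were passed, purple with GC correction, green with another scaling of the hearts, grey otherwise). Rbfox1 keeps values between 0.60 and 1.05, while the scaling alternatives lower all 10 genes.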

How the data were processed

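RNA-seq was made from 8 mouse hearts, 1 library per heart, with a kit based on ribodepleted RNA (ScriptSeq v2). The authors deposited FPKM per locus, with reads aligned to GRCm38 per the labels; the aligner, the counter and its use of strand are not given in the sources used here. Gene symbols were split at commas and matched ignoring case, taking the locus with the highest mean FPKM. Loci that reached 1 FPKM in any heart were compared as log2(FPKM + 1) with limma 3.58.1 (R 4.3.3, lmFit, then eBayes with a trend, no covariates) and Benjamini-Hochberg adjustment over all 43172 tested loci. This scale understates changes of low loci. A call needed an adjusted p below 0.05 and mean FPKM differing 1.5-fold or more. Exact permutation tests were two-sided over 70 assignments, and the p-values given were not adjusted. Tested on simulated data (about 33153 loci), 39 of 200 loci changed by a log2 change of 1 and 190 of 200 changed by 2 were recovered. False calls were 2 and 6. The simulated noise was independent between loci, with no scale shared within a heart. Only annotated loci above a set mean level were changed, so these shares may not hold for the real hearts.

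The files hold no counts. Fragments per kilobase were estimated from the steps of low values and cover counting error only. The 10 regulators and the lists were chosen with earlier results of these data known. Named were the 10 genes, paralogs with mean FPKM of at least 1, called genes of each other list or else its 3 widest, 6 known targets, the 3 loci most correlated with each of the 2 widest members, and loci overlapping a member at a mean FPKM of at least 1. Exons and GC content came from GENCODE M21. Alternatives were another pseudocount (0.1), other filters and scalings, a replicate block, quality weights per sample, no trend, the adjusted p alone, summed loci, each heart left out, and GC correction (lowess span 0.3), which was added after seeing the data. Other software was Python 3.11.15, scipy 1.17.1, pandas 2.3.3, numpy 2.4.6 and matplotlib 3.10.9.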

Additional observations from a re-analysis of the deposited data

Results flagged for a closer look

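Of 72 groups of 4 hearts examined for a value far from the others, 1 was singled out, where chance gives about 1 in 20, or 3.6. It was P1 replicate 4 in the ratio of Rbm24 to Rbm20 within a heart. The ratio was 2.47 there and 4.41 to 4.66 in the other P1 hearts, so that the gap took up 0.883 of the range. The level of Rbm20 in this heart was 74.9 FPKM, the highest of all 8 hearts, while Rbm24 was at 185 FPKM, within the range of the other P1 hearts.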

How the results depend on the processing

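The count of regulators past the thresholds was 0 in the main analysis. It was 1, Rbfox1 each time, when each heart had to reach 1 FPKM and with sample quality weights. It was also 1, again Rbfox1, with GC correction and median-ratio scaling and with GC correction and the replicate block. When hearts were left out it ran from 0 to 1, the 1 being Rbfox1 without P1 replicate 4. In these settings, in that order, 20.2%, 16.4%, 4.24%, 2.14% and 16.0% of annotated loci passed. For the other splicing lists and the targets together the count of 4 (2 of them targets) became 1 with no filter, 12 with the filter on every heart, 10 with median-ratio scaling, 13 with quantile normalization, 13 with quality weights, 1 without trend, 0 with GC correction, and 0 to 16 when hearts were left out, 16 without P1 replicate 4. With the replicate number as a block it was 2, with GC correction and the block 0, and for the 10 regulators with the block alone 0. The share of annotated loci that passed was 8.14% in the main analysis and 1.94% with no filter. It was 11.2% with median-ratio scaling, 11.6% with quantile normalization and 5.24% without trend. With GC correction it was 2.27%, with the block 5.86%, and 0.935% to 16.0% when hearts were left out. The counts of the other splicing lists and the targets were in general higher where this share was higher. The count of the 10 regulators did not follow it. Rbfox1 passed at shares of 4.24% and 2.14% and did not pass at 11.2% and 11.6%. The deviations of same-numbered hearts from the mean of their day had correlations of 0.058, 0.218, -0.276 and -0.124. Their mean was -0.031, against 0.010 for hearts of different numbers. The labels give only a replicate number, and whether same-numbered hearts shared a batch was not tested. Calls over all annotated loci were 1390 higher and 72 lower, but 1388 and 621 with median-ratio scaling and 1454 and 642 with quantile normalization, 381 and 26 with GC correction, 156 and 11 without P1 replicate 2 and 2720 and 115 without P1 replicate 4. Signs turned with median-ratio scaling and quantile normalization for Mbnl1 (-0.14 and -0.15), Mbnl2 (-0.032 and -0.0095), Celf1 (-0.17 and -0.18), Ttn (-0.073 and -0.073) and Camk2d (-0.20 and -0.18). With GC correction and median-ratio scaling they turned for Celf1 (-0.023), Rbfox2 (-0.032), Rbm20 (-0.077) and Nova2 (-0.035), and with GC correction, alone or with the block, for Ptbp2 (0.082) and Enah (0.17), which also turned with quality weights (0.022). Leaving out a heart gave ranges through 0 for Celf1 (-0.074 to 0.16), Ptbp3 (-0.14 to 0.037), Ttn (-0.0094 to 0.38), Camk2d (-0.12 to 0.22) and Enah (-0.17 to 0.089). The log2 ratio of Ptbp1 to Ptbp2 fell from 0.70 to 0.23 with GC correction. The causes were not tested. Depth limits Rbfox1 most, at about 75.9 fragments per kilobase in P1 replicate 3.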

Other observations

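The U1 locus within the span of Rbfox2 was listed at 26.1, 24.0, 19.3 and 36.8 FPKM in the P1 hearts and at 0, 4.52, 0 and 18.6 in the P7 hearts. U1 is the small nuclear RNA that recognizes the start of introns, and many loci carry its symbol, so the value is uncertain.
The highest of the Gm16299 loci, antisense within the span of Rbm20, was listed at 54.2, 69.8, 52.7 and 88.9 FPKM in P1 and at 47.0, 39.1, 49.96 and 46.4 in P7, where Rbm20 itself had a positive log2 fold change. P1 replicate 4 was the highest heart for both loci. In the other Gm16299 loci the P1 and P7 hearts overlapped, so the days were apart in the highest locus alone. The lowest of the Gm16299 loci was listed at 8.24, 5.69, 4.89 and 16.3 FPKM in P1 and at 11.4, 7.28, 10.6 and 8.05 in P7.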
